A study of Mus musculus with 36 samples.

Results

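TM+ DCs from cultures treated with soluble thrombomodulin (sTM) were compared with TM+ DCs from untreated cultures in experiments 3 and 4, the experiments in which TM+ DCs of both treatments were sorted. The comparison holds 8 of the 36 arrays, taken by their sample titles, and consists of 4 sTM-treated and 4 untreated arrays with 2 of each in either experiment. Bone marrow of Balb/c mice aged 10 to 12 weeks was grown with GM-CSF at 100 ng/ml in every culture and harvested on day 6. The treated cultures received 200 nM sTM, a soluble form of human TM, from day 4, and the untreated cultures received 0 nM. TM+ DCs were then isolated on magnetic microbeads through an antibody to TM, and the labels give a purity above 93%. Sorting followed treatment, so that the treated fraction holds whichever cells carried TM at harvest. These are bulk measurements, in which fewer cells of a type and less RNA per cell cannot be told apart. The 2 arrays of each group and experiment are labelled as biological replicates, with nothing said of separate cultures or mice, so that p-values measure only the spread between arrays, which may be technical.

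Thrombomodulin is a membrane receptor for thrombin, best known from endothelium, where thrombin bound to it activates protein C and no longer clots fibrinogen. Dendritic cells take up antigen, sense microbial products through pattern receptors and, once activated, raise cytokines, costimulatory molecules and interferon-stimulated genes. Cultures of bone marrow in GM-CSF hold DCs beside macrophages, granulocytes and their precursors, so markers of those cells were followed as well.

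Thbd, which encodes TM itself, checked the sort. On the log2 scale its level was 6.13 and 5.84 in sTM-treated TM+ arrays of experiment 3, against 6.66 and 6.92 in the untreated TM+ arrays. In experiment 4 Thbd had 6.26 and 6.11 in sTM-treated and 5.84 and 5.76 in untreated TM+ arrays. The 8 TM- arrays of the same experiments lay between 5.65 and 6.06, so that 1 sTM-treated array of experiment 3 and both untreated arrays of experiment 4 labelled TM+ were inside the range of TM-. Thbd mRNA was dim throughout, with a mean above 35.4% of genes. Its sTM effect was -0.81 ± 0.13 (SE) in experiment 3 (limma, adjusted p = 0.000886) and 0.38 ± 0.13 in experiment 4 (adjusted p = 0.0833, and 0.028 with the replicate block described below). The sort was made on the TM protein, which the arrays do not measure. DC genes were bright in the TM+ arrays: the integrin Itgax, the MHC class II chain H2-Aa and the invariant chain Cd74 had means above 99.1%, 99.3% and 99.4% of genes, whereas the DC factors Zbtb46 and Flt3 lay above 50.3% and 33.2%.

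Several gene groups described below have regulators with well-known DNA motifs, and promoters of 6 of their members are shown so that the genes can be read beside their sequence. They are the 250 bases before the RefSeq start site in build GRCm38.p6, written 5′ to 3′ in the direction of the gene, with matches to the motif named for each gene in capitals on either strand. Hmgcs1 and Insig1 belong to the cholesterol group, searched for the sterol element TCACNCCAC, which only Hmgcs1 held, and the CCAAT box, which both held. The Hmgcs1 promoter lies at chr13:119690101-119690350 (plus strand) and the Insig1 promoter at chr5:28071162-28071411 (plus strand).
Hmgcs1: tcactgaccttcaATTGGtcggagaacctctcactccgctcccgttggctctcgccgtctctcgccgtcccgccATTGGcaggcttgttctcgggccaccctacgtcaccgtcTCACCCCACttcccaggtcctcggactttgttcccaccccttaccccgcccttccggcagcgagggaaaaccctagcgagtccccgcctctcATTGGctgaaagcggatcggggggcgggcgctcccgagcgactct
Insig1: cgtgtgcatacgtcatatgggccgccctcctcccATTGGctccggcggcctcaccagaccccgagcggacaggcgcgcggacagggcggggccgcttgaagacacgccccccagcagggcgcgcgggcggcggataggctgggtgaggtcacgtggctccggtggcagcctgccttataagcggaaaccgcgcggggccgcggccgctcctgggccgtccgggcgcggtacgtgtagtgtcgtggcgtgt
Nupr1 and Asns are amino acid stress genes, with the motif TGATGNAA. Their promoters lie at chr7:126625471-126625720 (minus strand) and chr6:7693210-7693459 (minus strand).
Nupr1: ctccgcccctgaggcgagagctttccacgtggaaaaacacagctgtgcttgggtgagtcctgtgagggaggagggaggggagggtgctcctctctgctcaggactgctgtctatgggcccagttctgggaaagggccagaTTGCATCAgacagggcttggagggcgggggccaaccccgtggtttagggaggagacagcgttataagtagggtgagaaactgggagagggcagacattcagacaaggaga
Asns: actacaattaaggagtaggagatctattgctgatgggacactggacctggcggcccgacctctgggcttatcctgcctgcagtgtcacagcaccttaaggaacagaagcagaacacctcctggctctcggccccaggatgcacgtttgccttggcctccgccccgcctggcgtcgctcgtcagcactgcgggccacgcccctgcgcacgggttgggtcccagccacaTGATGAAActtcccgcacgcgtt
Mgarp is a hypoxia-inducible gene with the motif ACGTGC, and its promoter lies at chr3:51396548-51396797 (minus strand). Rsad2 is an interferon-stimulated gene with the motif GAAANNGAA, and its promoter lies at chr12:26456453-26456702 (minus strand).
Mgarp: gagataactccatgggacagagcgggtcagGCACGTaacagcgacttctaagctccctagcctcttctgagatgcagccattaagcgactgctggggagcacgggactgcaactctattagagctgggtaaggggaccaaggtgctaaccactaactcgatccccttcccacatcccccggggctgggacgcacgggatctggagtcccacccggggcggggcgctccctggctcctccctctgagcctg
Rsad2: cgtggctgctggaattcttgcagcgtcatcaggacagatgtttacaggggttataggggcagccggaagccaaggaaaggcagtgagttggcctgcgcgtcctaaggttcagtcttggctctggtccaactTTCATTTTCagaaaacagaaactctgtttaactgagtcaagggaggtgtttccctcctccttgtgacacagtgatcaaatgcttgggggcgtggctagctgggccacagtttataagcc
In windows of this length, TCACNCCAC was found on either strand in 1.05% of 32851 promoters and in 1 of the 17 cholesterol genes that had a promoter in the table. CCAAT was found in 33.8% of promoters and in 16 of those 17 genes. TGATGNAA was found in 3.45% of promoters and in 6 of 20 amino acid stress genes, ACGTGC in 4.92% of promoters and in 17 of 32 hypoxia genes, and GAAANNGAA in 7.13% of promoters and in 12 of 26 interferon-stimulated genes. The percentages count all promoters searched, not only those of the 19938 genes tested, whereas a list gene counted once if any of its promoters matched. The lists were made of genes known to answer to such regulators, so their shares are no separate evidence. These matches describe letters and were not tested as binding sites.

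The level of each gene is the log2 of its deposited intensity, and an effect is the sTM-treated minus the untreated mean. A gene was called where limma's p, adjusted by Benjamini-Hochberg over all 19938 genes, was under 0.05. Over all 35556 transcript clusters of the deposited data, arrays of the same group and experiment correlated at r = 0.992 to 0.9966. Over the same clusters, sTM-treated and untreated arrays of the same experiment correlated at 0.9832 to 0.9915, and arrays of the same group in the other experiment at 0.972 to 0.9779. The untreated array numbered 2 in experiment 4 stood apart from its replicate in a few inflammatory genes: Hamp was 2.01 higher in it on the log2 scale, Ptgs2 1.89, Nos2 1.66, Saa3 1.48, Ccl5 1.42 and Il6 1.10, and 8 genes in all differed by more than 1. The other 3 groups had 2, 0 and 0 such genes. TM+ arrays were compared with TM- arrays of the same treatment and experiment over the 19938 genes only. In experiment 3 they correlated at 0.9733 to 0.9857 (sTM-treated) and 0.9726 to 0.9735 (untreated). In experiment 4 they correlated at 0.9519 to 0.9598 (sTM-treated) and 0.9349 to 0.9438 (untreated).

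Within experiment 3, 1422 genes were higher (7.13% of genes) and 995 lower (4.99%) in sTM-treated TM+ DCs. Within experiment 4, 953 were higher (4.78%) and 931 lower (4.67%). With the array numbers as a replicate block, the experiments had 4229 and 3751 calls. Only a minority of these genes were called in both: 207 were higher in both experiments (1.04% of all genes) and 199 lower in both (0.998%), which is 16.8% of the experiment 3 calls and 21.5% of the experiment 4 calls. A further 246 genes were called in both with opposite signs, 147 of them higher in experiment 3 and lower in experiment 4. Across genes, which are not independent replicates, the effects of the experiments correlated at r = 0.05. With the replicate block, 907 genes were called in both (483 higher, 424 lower), and the 406 were all among them.

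Without 1 of the 8 arrays, between 187 and 329 of the 406 kept both calls, and 77 kept them whichever array was left out. Counting only whether arrays overlapped, 1439 genes (7.22%) had both treated arrays above both untreated arrays in each experiment and 1724 (8.65%) had them below, while 2508 were separated in opposite directions. When the arrays of both experiments were fitted together with experiment as a random block, 65 genes were higher (0.326%) and 67 lower (0.336%) in sTM-treated TM+ DCs, and the arrays of all 132 did not overlap in either experiment. Without 1 array that fit called 1 to 120 genes and 1 to 26 of the 32 named genes it had called, and 31 of those 32 calls were lost without either untreated array of experiment 3. Experiment carried much of the spread in that fit, which called 1 gene with no experiment term. In every fit over both experiments, the replicate block was run with experiment as a fixed factor in place of a random block. That setting called 910 genes, against 884 with the fixed factor alone, and the correlation within its replicate blocks was 0.02. Adjusted p-values over both experiments given with the replicate block therefore reflect mostly the fixed factor.

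**Figure D1:**
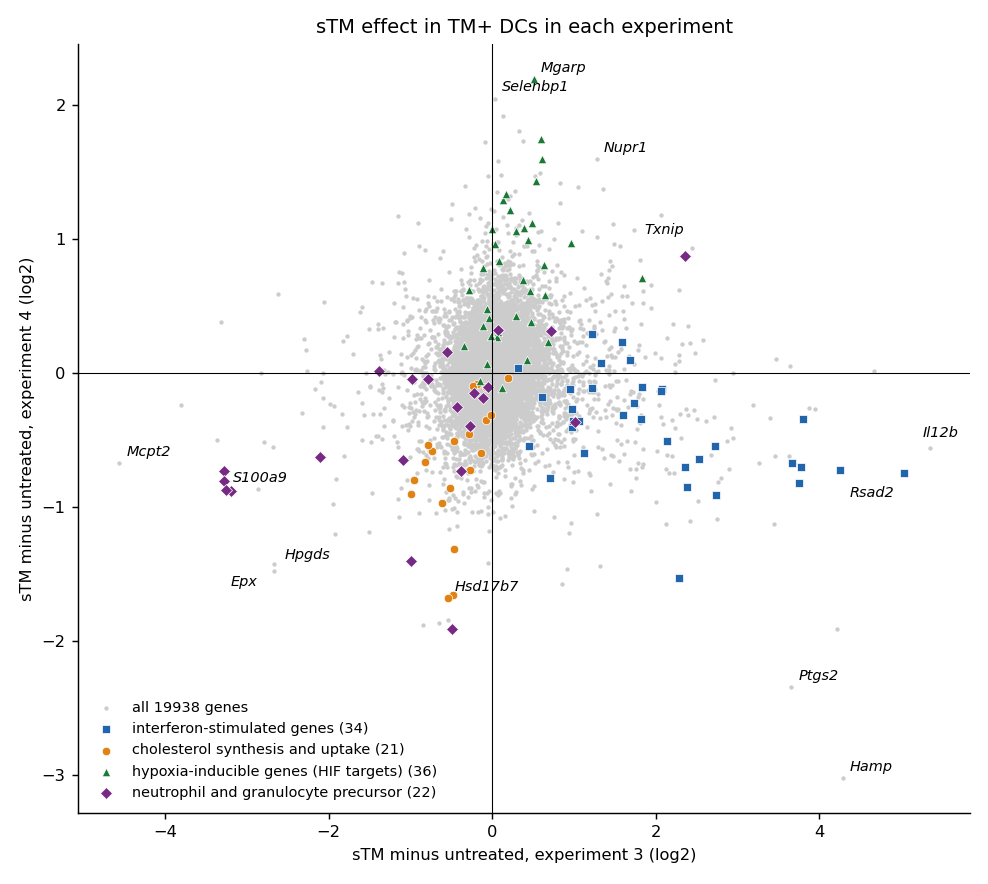
Each point is a gene, with its sTM effect in TM+ DCs (log2, sTM-treated minus untreated) in experiment 3 on the horizontal axis and in experiment 4 on the vertical axis. Coloured points are 4 gene lists, and grey points all 19938 genes. Interferon-stimulated genes (blue squares) lie to the right and mostly below 0, cholesterol genes (orange circles) lie below 0 and, but for 1 of 21, to the left of 0, and hypoxia-inducible genes (green triangles) lie mostly above 0.

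Among genes that rose in both experiments, Rab33a, a small GTPase of the Rab family, had nearly equal effects of 1.36 and 1.37. Its level was 8.43 and 8.64 in sTM-treated and 7.11 and 7.24 in untreated arrays of experiment 3, and 7.61 and 7.25 in sTM-treated and 5.74 and 6.37 in untreated arrays of experiment 4. Treated arrays were the higher ones in each experiment, although the experiments themselves differed by more than 1. Over both experiments Rab33a averaged 7.98 ± 0.66 in sTM-treated and 6.62 ± 0.70 in untreated arrays (SD, n = 4 each), a 2.58-fold rise (log2 1.37 ± 0.23 SE, limma adjusted p = 0.0357). Nupr1, a small nuclear protein induced by nutrient and other stress, had 10.22 and 10.22 in sTM-treated against 8.89 and 9.0 in untreated arrays of experiment 3. In experiment 4 Nupr1 had 9.48 and 9.66 in sTM-treated against 7.81 and 8.13 in untreated arrays, so that treated arrays stood apart in both, and its rise over both experiments was 2.71-fold (log2 1.44 ± 0.17 SE, limma adjusted p = 0.0111).

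Txnip encodes a thioredoxin-binding protein that restrains glucose uptake. It was among the brighter genes, with 12.67 and 12.72 in sTM-treated against 10.93 and 10.99 in untreated arrays of experiment 3, and 11.96 and 11.88 in sTM-treated against 10.88 and 10.82 in untreated arrays of experiment 4. Untreated arrays of both experiments were close together, and the rise was 3.33-fold in experiment 3 and 2.10-fold in experiment 4 (limma adjusted p = 1.1e-07 and 5.32e-05). In TM- DCs the effect on Txnip was 0.70 in experiment 3 and -1.35 in experiment 4. H2bc4, a histone H2B gene, had 10.94, 11.03, 11.32 and 11.26 in sTM-treated arrays against 9.84, 10.02, 9.78 and 10.02 in untreated arrays, with every treated array above every untreated one. Its rise over both experiments was 2.33-fold (log2 1.22 ± 0.10 SE, limma adjusted p = 0.00358). F5, coagulation factor V, rose 2.78-fold in experiment 3 and 2.17-fold in experiment 4 (limma adjusted p = 1.05e-06 and 6.52e-05), and did not pass the test over both experiments (adjusted p = 0.0815, and 0.000801 with the replicate block). Its levels were 9.46 and 9.56 in sTM-treated against 7.99 and 8.08 in untreated arrays of experiment 3, and 7.76 and 7.55 in sTM-treated against 6.57 and 6.51 in untreated arrays of experiment 4. Etfbkmt, a methyltransferase of the electron transfer flavoprotein, rose 2.14-fold and 2.09-fold in experiments 3 and 4.

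Other genes that rose in the fit over both experiments were larger in experiment 3. Mmp9, a secreted gelatinase, had 11.66 and 11.73 in sTM-treated against 9.34 and 9.32 in untreated arrays of experiment 3, and 10.32 and 10.19 in sTM-treated against 9.20 and 9.57 in untreated arrays of experiment 4. All 4 treated arrays were above all 4 untreated arrays, the rise was 5.13-fold in experiment 3 and 1.83-fold in experiment 4, and the difference between the experiments passed its own test (limma adjusted p = 0.000123). Klf10, a transcription factor induced by TGF-beta, rose 3.51-fold and 1.80-fold in experiments 3 and 4, and Fbp1, a fructose bisphosphatase of gluconeogenesis, 3.59-fold and 1.53-fold. Ccl24, an eosinophil-attracting chemokine, had 9.30, 9.29, 9.38 and 9.22 in sTM-treated arrays against 7.60, 7.87, 8.45 and 8.26 in untreated arrays. The treated arrays of Ccl24 were close together and the untreated ones below them, a 2.39-fold rise (log2 1.25 ± 0.14 SE, limma adjusted p = 0.0111). Cpm, a membrane carboxypeptidase, rose 2.35-fold over both experiments and Ephx1, the microsomal epoxide hydrolase, 2.23-fold.

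Among the deepest falls shared by both experiments were those of Epx and Hpgds, genes of eosinophils and mast cells. Epx, the eosinophil peroxidase, had 6.76 and 6.87 in sTM-treated against 9.45 and 9.51 in untreated arrays of experiment 3, and 8.78 and 8.50 in sTM-treated against 10.14 and 10.08 in untreated arrays of experiment 4. No treated array of Epx reached an untreated one, and the fall was 6.35-fold in experiment 3 and 2.78-fold in experiment 4 (limma adjusted p = 1.24e-08 and 2.18e-05). Hpgds makes prostaglandin D2 and is best known from mast cells. It had 5.22 and 5.50 in sTM-treated against 8.02 and 8.03 in untreated arrays of experiment 3, and 6.87 and 6.82 in sTM-treated against 8.32 and 8.21 in untreated arrays of experiment 4. Untreated arrays of Hpgds were close together, and its fall was 6.35-fold in experiment 3 and 2.68-fold in experiment 4 (limma adjusted p = 1.19e-08 and 2.7e-05). Prg2, the eosinophil major basic protein, fell 2.00-fold and 2.64-fold in experiments 3 and 4.

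Itgae and Btla, both used as markers of DC subsets, also fell in both experiments. Other such markers did not follow them as a set. Of the 18 genes followed as conventional DC markers, which leave out Itgae, Btla and Kmo fell in both experiments and Clec9a rose in both. In experiment 3, 7 of the 18 rose and 6 fell, and in experiment 4, 1 rose and 4 fell. Itgae encodes the alpha chain of CD103, an integrin that binds E-cadherin. Its level was 6.43 and 6.31 in sTM-treated against 8.25 and 8.35 in untreated arrays of experiment 3, and 9.08 and 8.99 in sTM-treated against 10.23 and 10.25 in untreated arrays of experiment 4. The treated arrays of experiment 4 were above the untreated arrays of experiment 3, so the groups overlapped across experiments but not within them, and Itgae fell 3.80-fold and 2.30-fold in experiments 3 and 4 (limma adjusted p = 6.5e-08 and 3.18e-05) without passing the test over both (adjusted p = 0.113, and 0.000871 with the replicate block). Btla, an inhibitory receptor of lymphocytes and DCs, fell 2.85-fold and 2.28-fold in experiments 3 and 4 (limma adjusted p = 8.98e-06 and 0.000266). Csta3, a member of the stefin family of protease inhibitors, whose copies are alike enough that their probes may be shared, fell 2.20-fold and 2.10-fold. The 12 genes singled out for their effects in both experiments were Rab33a, Nupr1, F5, Txnip, Etfbkmt, H2bc4, Epx, Hpgds, Itgae, Btla, Csta3 and Prg2. They were chosen by the size of their effects in these same arrays, so refits of the arrays give no separate support for them.

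**Figure D2:**
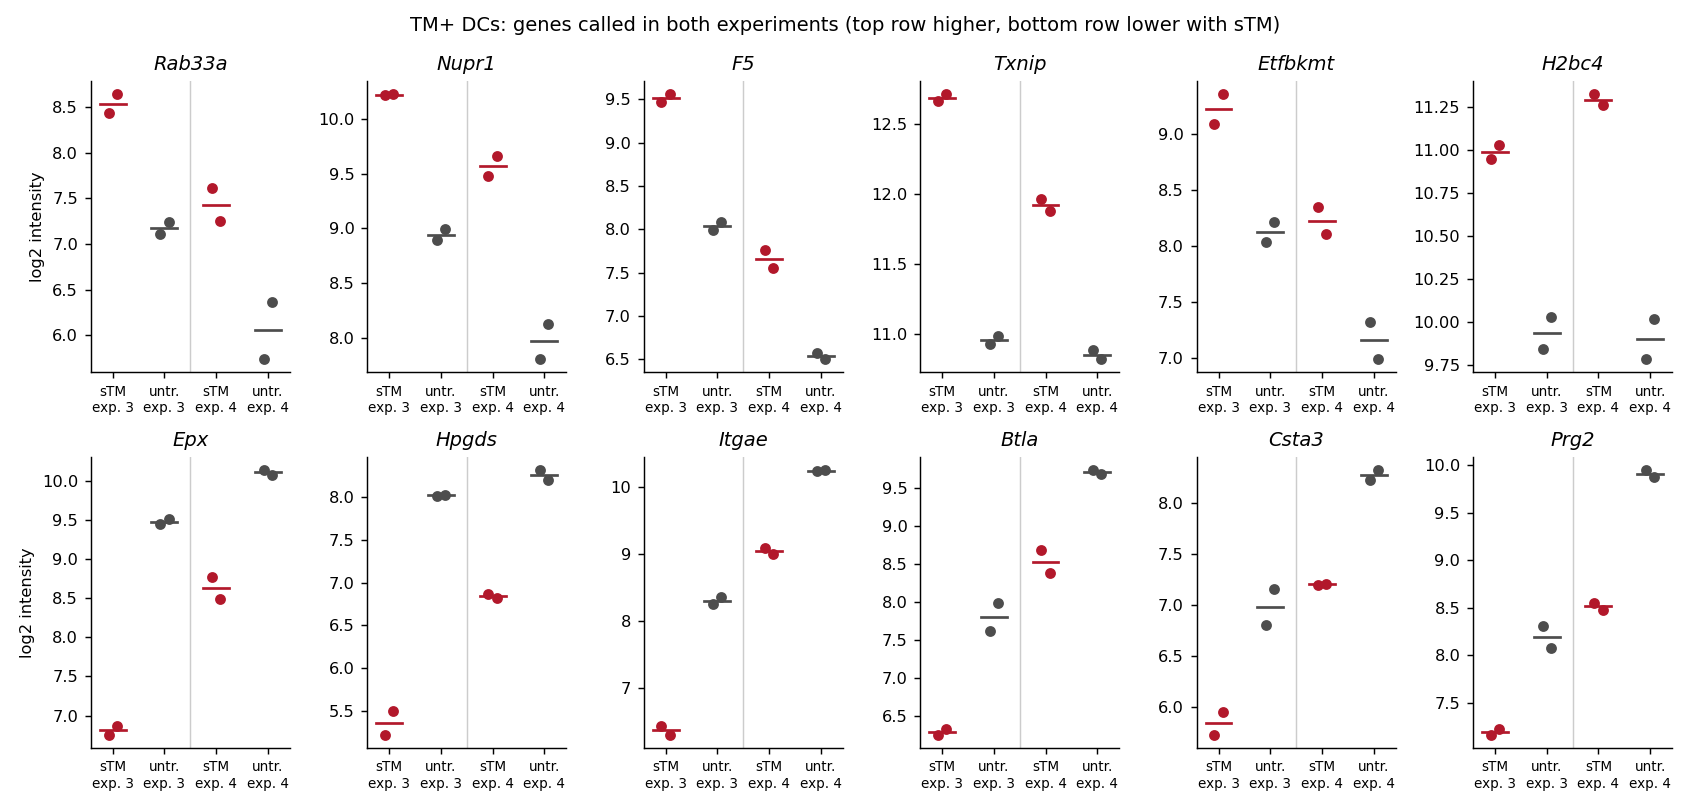
Log2 intensity of 12 genes called in both experiments (upper panels higher, lower panels lower in sTM-treated TM+ DCs), with each point an array, each bar the mean of 2 arrays, and sTM-treated in red left of untreated in grey within experiments 3 and 4. In every panel the 2 treated arrays of an experiment lie on 1 side of the 2 untreated arrays.

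Further falls over both experiments were Olfm4, a secreted glycoprotein of neutrophil granules, C1qb, a chain of complement C1q, and Frzb, a secreted inhibitor of Wnt proteins. Olfm4 had 7.20, 7.06, 8.47 and 8.12 in sTM-treated arrays against 9.19, 8.96, 9.23 and 9.31 in untreated arrays, a 2.75-fold fall (log2 -1.46 ± 0.21 SE, limma adjusted p = 0.0226). C1qb had 7.60, 7.63, 8.64 and 8.61 in sTM-treated arrays against 9.13, 9.06, 9.09 and 9.19 in untreated arrays, a 2.00-fold fall (limma adjusted p = 0.0485). Untreated arrays of C1qb were alike in the experiments, whereas the treated arrays of experiment 3 were about 1 below those of experiment 4. Its neighbour C1qa fell in both experiments as well, 2.51-fold and 1.31-fold. Dkc1, the pseudouridine synthase of small nucleolar ribonucleoproteins, fell 1.96-fold over both experiments, Fhdc1, a formin, 2.55-fold, and Chil1, a chitinase-like protein, 1.92-fold.

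Part of the cholesterol genes fell in both experiments. When sterols run short, the transcription factor encoded by Srebf2 is released from the endoplasmic reticulum and switches on the enzymes of the pathway, and Insig1 holds it back. Of 21 measured genes of synthesis and uptake, 11 fell in both experiments and 0 rose: Srebf2, Insig1, Hmgcs1, Idi1, Fdps, Fdft1, Lss, Cyp51, Msmo1, Hsd17b7 and Stard4. In experiment 3 these were the only 11 calls, and in experiment 4 Mvk, Sqle, Nsdhl and Dhcr7 made 15. The median effect was -0.467 in experiment 3 and -0.578 in experiment 4, beside -0.062 and -0.003 over all genes. Scap, Pmvk, Mvd, Tm7sf2, Ebp and Sc5d were called in neither experiment. By the test of the difference 3 members had a deeper fall in experiment 4. With 1 array left out 7 to 11 members were lower in both, with 7 without either untreated array of experiment 3, and with the replicate block 14.

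Srebf2 had 9.32 and 9.30 in sTM-treated against 10.04 and 10.04 in untreated arrays of experiment 3, and 9.83 and 9.58 in sTM-treated against 10.33 and 10.23 in untreated arrays of experiment 4. All treated arrays of Srebf2 were below all untreated ones, a 1.57-fold fall over both experiments (log2 -0.65 ± 0.09 SE, limma adjusted p = 0.0213). Hmgcs1, the HMG-CoA synthase whose promoter is printed above, had 8.51, 8.62, 8.93 and 8.74 in sTM-treated arrays against 9.19, 9.15, 9.81 and 9.79 in untreated arrays, again without overlap, and fell 1.73-fold (limma adjusted p = 0.0253). Insig1 had 8.82, 9.05, 9.29 and 9.01 in sTM-treated arrays against 9.78, 10.07, 10.12 and 9.99 in untreated arrays and fell 1.93-fold (limma adjusted p = 0.0111). The isomerase gene Idi1 fell 1.40-fold in experiment 3 and 3.15-fold in experiment 4, and the difference between experiments passed its test (limma adjusted p = 0.00107). Hsd17b7, a late enzyme of the pathway, fell 1.46-fold and 3.20-fold. Of the sterol exporters and lipid carriers, Abca1 rose 1.28-fold and 1.53-fold and Pltp 2.18-fold and 1.55-fold in experiments 3 and 4, whereas the exporter Abcg1 fell in experiment 3 and rose in experiment 4. Fasn, the fatty acid synthase, fell 1.46-fold and 3.58-fold and was the only 1 of 13 genes of fatty acid synthesis that fell in both.

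In TM- DCs the median effect of the cholesterol genes was 0.217 in experiment 3 and -0.022 in experiment 4. The effect on Hmgcs1 there was 0.70 and -0.08. Whether the effect differed between TM+ and TM- DCs was tested for every gene in 16 sorted arrays, and 0 of the 21 cholesterol genes passed. Over all genes, 1 passed (0.00502%), with 779 at an unadjusted p under 0.05. That gene was Gcsam, a signalling adaptor named for germinal centre B cells. Its level was 5.70, 5.81, 6.23 and 5.85 in sTM-treated TM+ arrays against 6.87, 6.87, 6.86 and 6.94 in untreated TM+ arrays, and 5.85, 5.98, 5.69 and 5.68 in sTM-treated against 5.66, 5.63, 5.51 and 5.63 in untreated TM- arrays. Gcsam was thus high only in the untreated TM+ arrays among the sorted arrays of these experiments, with an effect in TM+ minus that in TM- DCs of -1.18 (limma adjusted p = 0.0127). No gene passed after quantile normalization, nor without sTM-treated array 2 of experiment 3, sTM-treated array 2 of experiment 4 or untreated array 2 of experiment 4 among TM+ arrays, or sTM-treated array 1 of experiment 3 or untreated array 1 of experiment 4 among TM- arrays. The next 3 genes by p were Cbln3 (0.91, adjusted p = 0.142), Srebf2 (-0.92, adjusted p = 0.187) and Thy1 (-0.74, adjusted p = 0.271), none past the test.

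**Figure D3:**
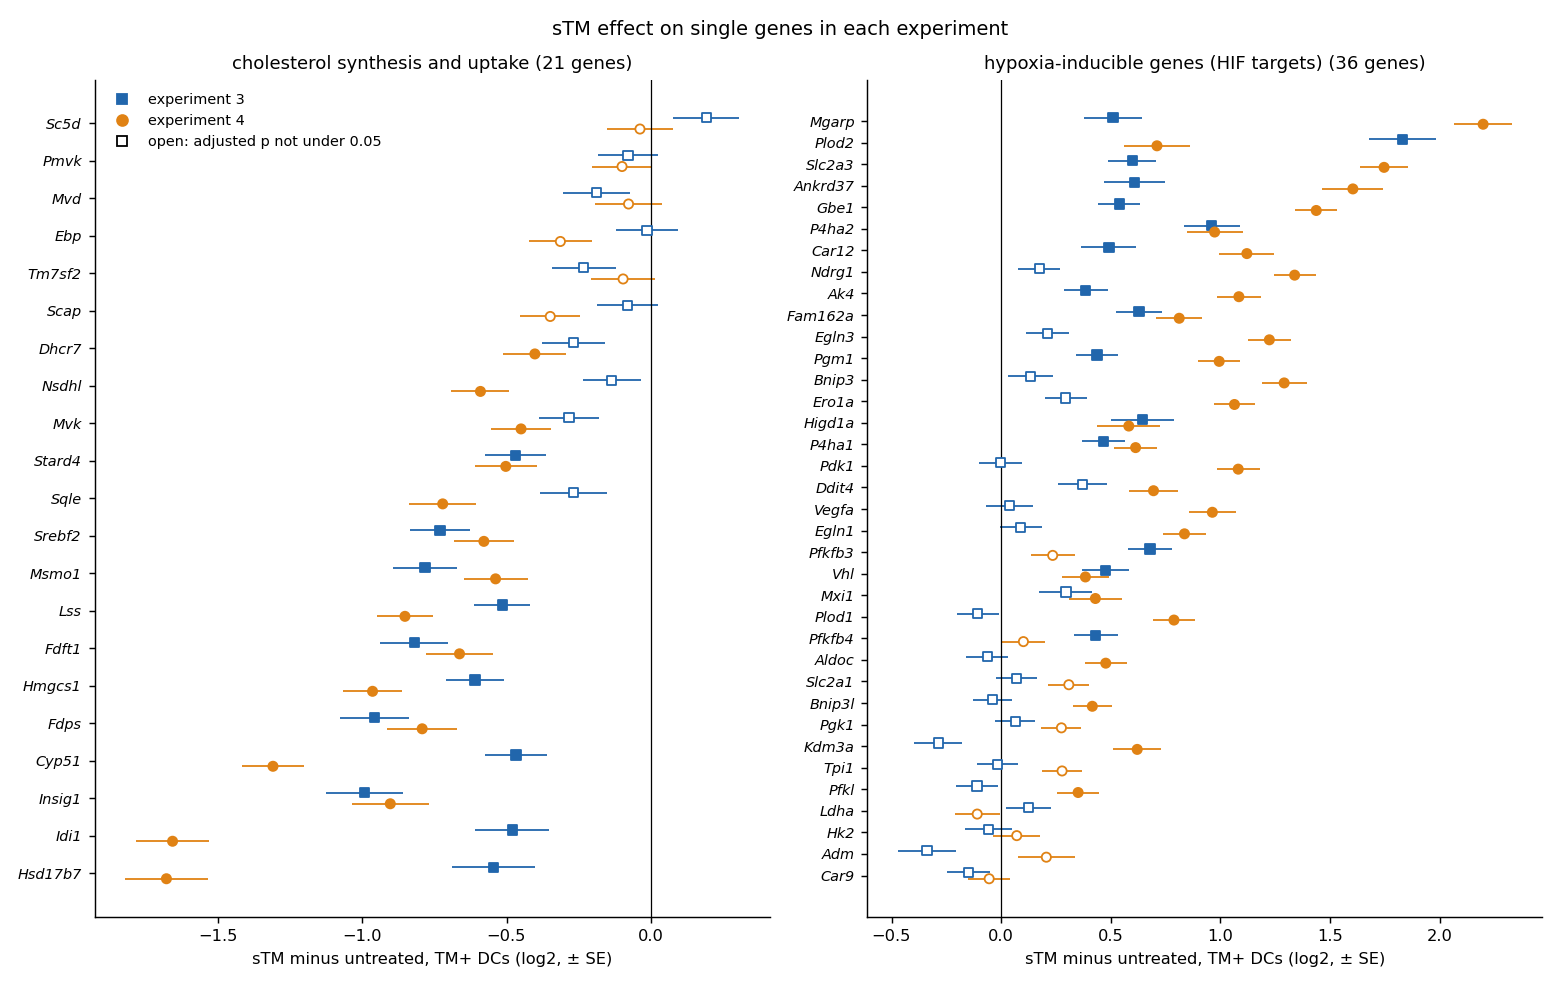
sTM effect (log2, sTM-treated minus untreated) of each member of the cholesterol and the hypoxia-inducible genes in TM+ DCs, with experiment 3 as squares, experiment 4 as circles, bars of 1 SE, and open symbols for genes not called. Of the 21 cholesterol genes, 20 lie below 0 in experiment 3 and 21 in experiment 4, and of the 36 hypoxia-inducible genes 10 and 2 lie below 0.

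Hypoxia-inducible genes, targets of the HIF transcription factors that oxygen normally keeps low, were listed after their values had been seen. Of 36 measured members, 13 were higher in both experiments and 0 lower, 15 were higher in experiment 3 and 27 in experiment 4, and the medians were 0.254 and 0.702. Mgarp, a mitochondrial protein, had 8.53 and 8.86 in sTM-treated against 8.12 and 8.25 in untreated arrays of experiment 3, and 8.46 and 8.27 in sTM-treated against 6.06 and 6.27 in untreated arrays of experiment 4. The untreated arrays of experiment 4 were the low ones, and the rise was 1.42-fold in experiment 3 and 4.59-fold in experiment 4. The glucose carrier Slc2a3 rose 1.51-fold and 3.35-fold, and Ankrd37, a small ankyrin protein, 1.52-fold and 3.04-fold. Plod2, which hydroxylates collagen lysines, ran the other way, with a 3.56-fold rise in experiment 3 and a 1.64-fold rise in experiment 4. Slc2a1, Ldha, Pgk1, Car9, Adm, Hk2 and Tpi1 were called in neither. The median in TM- DCs was -0.055 and 0.186, and without 1 array 5 to 13 members were higher in both. Without sTM-treated array 2, untreated array 1 or untreated array 2 of experiment 3, the rises in that experiment numbered 7, 7 and 6, and those in both 6, 6 and 5.

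Ribosome biogenesis genes were also listed after their values had been seen. Of 38 measured, 17 fell in both experiments and 0 rose, 18 fell in experiment 3 and 29 in experiment 4 (27 and 29 with the replicate block), and the medians were -0.33 and -0.523. In experiment 3 the falls numbered 8 without its sTM-treated array 1, 6 without its untreated array 1 and 3 without its untreated array 2. In experiment 4 they numbered 16 without its sTM-treated array 2 and 10 without its untreated array 1. They included the polymerase subunit Polr1b (1.39-fold and 1.66-fold lower), the processing factor Bop1 (1.34-fold and 2.04-fold lower) and Dkc1 (1.86-fold and 2.06-fold lower). The count in both was 3 to 11 without any 1 array other than sTM-treated array 1 of experiment 4, and 15 without that array. The median in TM- DCs was -0.331 in experiment 3 and 0.098 in experiment 4.

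Some markers of granulocytes fell in both experiments. Of 22 genes of neutrophils and their precursors, 9 fell in both experiments (Elane, Ms4a3, Ltf, Camp, Ngp, S100a8, S100a9, Cd177 and Ly6g) and 1 rose (Mmp9, and 2 genes with the replicate block or without either sTM-treated array of experiment 3), 3 rose in experiment 3, and the medians were -0.526 and -0.308. S100a9, a chain of calprotectin, had 6.69 and 6.81 in sTM-treated against 9.91 and 10.11 in untreated arrays of experiment 3, and 10.67 and 10.71 in sTM-treated against 11.57 and 11.54 in untreated arrays of experiment 4. Its fall was 9.57-fold in experiment 3 and 1.82-fold in experiment 4, and the treated arrays of experiment 3 were far below the other 6. Ltf, the granule protein lactoferrin, fell 9.71-fold and 1.66-fold, Ngp 9.76-fold and 1.75-fold, and Ly6g, a surface marker of neutrophils, 2.13-fold and 1.57-fold. Linear intensity was also summed over the neutrophil list, a sum in which the brightest members weigh most. The sums were 27425 to 29383 in sTM-treated and 24962 to 26024 in untreated arrays of experiment 3. In experiment 4 they were 30615 to 30881 in sTM-treated and 37388 to 37939 in untreated arrays.

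For 9 eosinophil markers the sum was 1863 to 1942 in sTM-treated and 3176 to 3349 in untreated arrays of experiment 3, and 4094 to 4300 in sTM-treated and 5737 to 5996 in untreated arrays of experiment 4, so the sums did not overlap within an experiment. Only Prg2 and Epx of that list fell in both, and 4 members did with the replicate block. Of 20 mast cell and basophil markers, Cpa3, Mcpt2 and Hpgds fell in both (1 gene without untreated array 1 of experiment 4), and the sums of the list were 4391 to 4650 in sTM-treated and 4405 to 4688 in untreated arrays of experiment 3, and 3193 to 3349 in sTM-treated and 3765 to 3814 in untreated arrays of experiment 4. Other mast cell and basophil markers rose: 4 of the 20 were higher and 6 lower in experiment 3, and 0 higher and 6 lower in experiment 4. Hdc and Il13 rose in experiment 3 and fell in experiment 4, and 9 members were called in neither. In TM- arrays of experiment 3 the eosinophil sums were 1142 to 1274 in sTM-treated and 1093 to 1158 in untreated cultures. In experiment 4 they were 1125 to 1169 in sTM-treated and 925 to 1063 in untreated cultures. The part of such cells in the falls of Epx, Hpgds and the granule genes was not tested.

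Interferon-stimulated genes separated the experiments. These genes are switched on by interferon through STAT and IRF factors. Of 34 measured, 33 rose in experiment 3 with a median of 1.778, and 16 fell in experiment 4 with a median of -0.358. All 16 were among those that rose in experiment 3, so that 0 were called alike in both. With the replicate block, 2 members rose in both and 22 fell in experiment 4. Rsad2, the antiviral protein viperin, had 11.61 and 11.78 in sTM-treated against 6.66 and 6.66 in untreated arrays of experiment 3, a 32.9-fold rise (limma adjusted p = 3.9e-10). In experiment 4 Rsad2 had 6.81 and 6.75 in sTM-treated against 7.35 and 7.70 in untreated arrays, a 1.68-fold fall (limma adjusted p = 0.00272). Only the treated arrays of experiment 3 were high. Ifit3 rose 19.1-fold in experiment 3 and fell 1.65-fold in experiment 4. In TM- DCs the list's median was 1.27 in experiment 3 and -0.402 in experiment 4, and Rsad2 there had 12.58 and 12.04 in sTM-treated and 10.09 and 9.92 in untreated arrays of experiment 3. Leaving out 1 array left 32 or 33 members higher in experiment 3 and 9 to 18 lower in experiment 4, with 9 without its untreated array 1 and 10 without its sTM-treated array 2.

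Inflammatory cytokines and chemokines followed the same order. Of 29 measured, 18 rose and 2 fell in experiment 3, and 2 rose and 14 fell in experiment 4, with medians of 0.811 and -0.481. Ccl24 was the only member higher in both, and 12 were higher in experiment 3 and lower in experiment 4, among them Il1a, Il1b, Tnf, Il12a, Cxcl1, Ccl2 and Ccl22. Without the untreated array numbered 2 of experiment 4, 6 members fell in that experiment instead of 14, and without the sTM-treated array numbered 2 it was 7. Il12b, the shared chain of interleukins 12 and 23, had 11.43 and 11.43 in sTM-treated against 6.13 and 6.02 in untreated arrays of experiment 3, a 40.9-fold rise. In experiment 4 Il12b had 5.86 and 6.11 in sTM-treated against 6.20 and 6.89 in untreated arrays, which was not past the test (limma adjusted p = 0.0732, and 0.0103 with the replicate block). Ptgs2, the inducible cyclooxygenase, had 12.83 and 12.98 in sTM-treated against 9.12 and 9.38 in untreated arrays of experiment 3 and 8.01 and 7.84 in sTM-treated against 9.32 and 11.21 in untreated arrays of experiment 4. Ptgs2 therefore rose 12.6-fold in experiment 3 and fell 5.07-fold in experiment 4, with untreated arrays of experiment 4 that were 1.89 apart.

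Genes of DC maturation and NF-kB gave the same split. Of 18 costimulatory and maturation genes, 15 rose in experiment 3 and 5 fell in experiment 4, and only Tnfsf9 rose and Havcr2 fell in both. Without untreated array 2 of experiment 4 the falls there numbered 3, no member rose in both without its untreated array 1, and none fell in both when 1 untreated array of either experiment or sTM-treated array 2 of experiment 4 was left out. Cd40, which receives help from T cells, had 10.12 and 10.26 in sTM-treated against 7.73 and 7.62 in untreated arrays of experiment 3, and 7.80 and 7.68 in sTM-treated against 8.67 and 8.71 in untreated arrays of experiment 4. The treated arrays of experiment 3 were the highest and those of experiment 4 were at the level of untreated cells of experiment 3, a 5.72-fold rise and a 1.93-fold fall. Cd83, a maturation marker, rose 5.27-fold in experiment 3 and had an effect of -0.31 in experiment 4 (limma adjusted p = 0.16, and 0.0454 with the replicate block). Of 19 NF-kB subunits and feedback genes 15 rose in experiment 3 and 5 fell in experiment 4, with Nfkbie, Traf1, Ptgs2, Sod2 and Socs3 opposite in the experiments, and with the replicate block 9 fell in experiment 4. Without 1 array of experiment 4 it was 2 or 3. Of 10 MHC class II genes, H2-Eb1 and Ciita, the transactivator of the group, fell in both: Ciita 1.86-fold and 1.42-fold, and H2-Eb1 1.29-fold and 1.35-fold. With the replicate block 4 of them fell in both, and without 1 array 0 to 3: 0 without either untreated array of experiment 4, 1 without either of its sTM-treated arrays, 1 without sTM-treated array 1 or either untreated array of experiment 3, and 3 without sTM-treated array 2 of experiment 3.

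**Figure D4:**
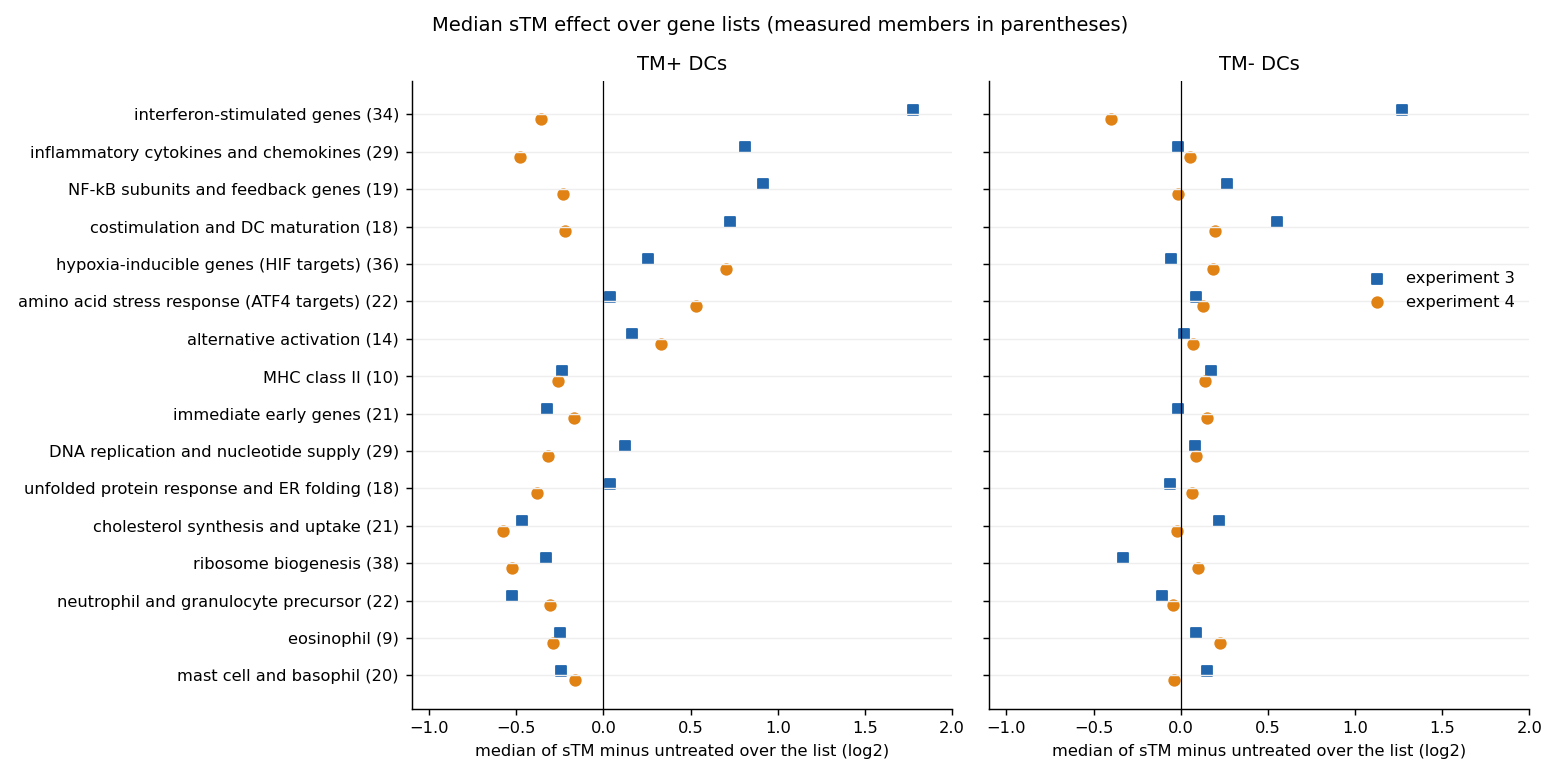
Median sTM effect (log2, sTM-treated minus untreated) of each gene list in TM+ and TM- DCs, by experiment, with squares for experiment 3 and circles for experiment 4 and the number of measured genes in parentheses. In TM+ DCs the median of interferon-stimulated genes was 1.778 in experiment 3 and -0.358 in experiment 4, whereas that of cholesterol genes was -0.467 and -0.578.

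The difference between the experiments was itself tested, and 1114 genes (5.59%) had a higher and 886 (4.44%) a lower effect in experiment 3 than in experiment 4, with 3672 calls in all under the replicate block. Hamp, the iron hormone hepcidin, was the most unlike: 9.60 and 9.73 in sTM-treated against 5.39 and 5.37 in untreated arrays of experiment 3, and 5.05 and 4.66 in sTM-treated against 6.87 and 8.88 in untreated arrays of experiment 4. The 2 untreated arrays of experiment 4 were themselves 2.01 apart, and the effects differed by 7.31 (limma adjusted p = 9.29e-06). Saa3, an acute phase protein, rose 18.7-fold in experiment 3 and fell 3.76-fold in experiment 4. In TM- arrays of both experiments Hamp lay between 9.25 and 12.53 and Saa3 between 11.83 and 12.93, so that for both genes the sTM-treated TM+ arrays of experiment 3 were the ones nearest to TM- levels.

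On the other side, genes that fell in experiment 3 included mast cell proteases of the mucosal type. Mcpt1 had 4.69 and 4.81 in sTM-treated against 8.56 and 8.55 in untreated arrays of experiment 3, and 4.79 and 4.55 in sTM-treated against 5.02 and 4.79 in untreated arrays of experiment 4. Only the untreated arrays of experiment 3 stood clear of the other 6, a 14.0-fold fall there and an effect of -0.24 in experiment 4 (limma adjusted p = 0.259). Mcpt2, a close relative whose probes may share signal with Mcpt1, fell 23.7-fold and 1.59-fold. Tgfb3, a TGF-beta isoform, had 6.60 and 6.71 in sTM-treated against 9.63 and 9.32 in untreated arrays of experiment 3 and 8.01 and 7.86 in sTM-treated against 8.03 and 7.83 in untreated arrays of experiment 4, a 7.09-fold fall in experiment 3. The glycosyltransferase B4galnt2 fell 9.99-fold, the tight junction protein Cldn1 10.3-fold and the interleukin-18 receptor chain Il18r1 6.15-fold in experiment 3. In experiment 4 Cldn1 fell 1.41-fold, Il18r1 rose 1.51-fold and B4galnt2 had an effect of 0.38 (limma adjusted p = 0.102, and 0.0233 with the replicate block).

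**Figure D5:**
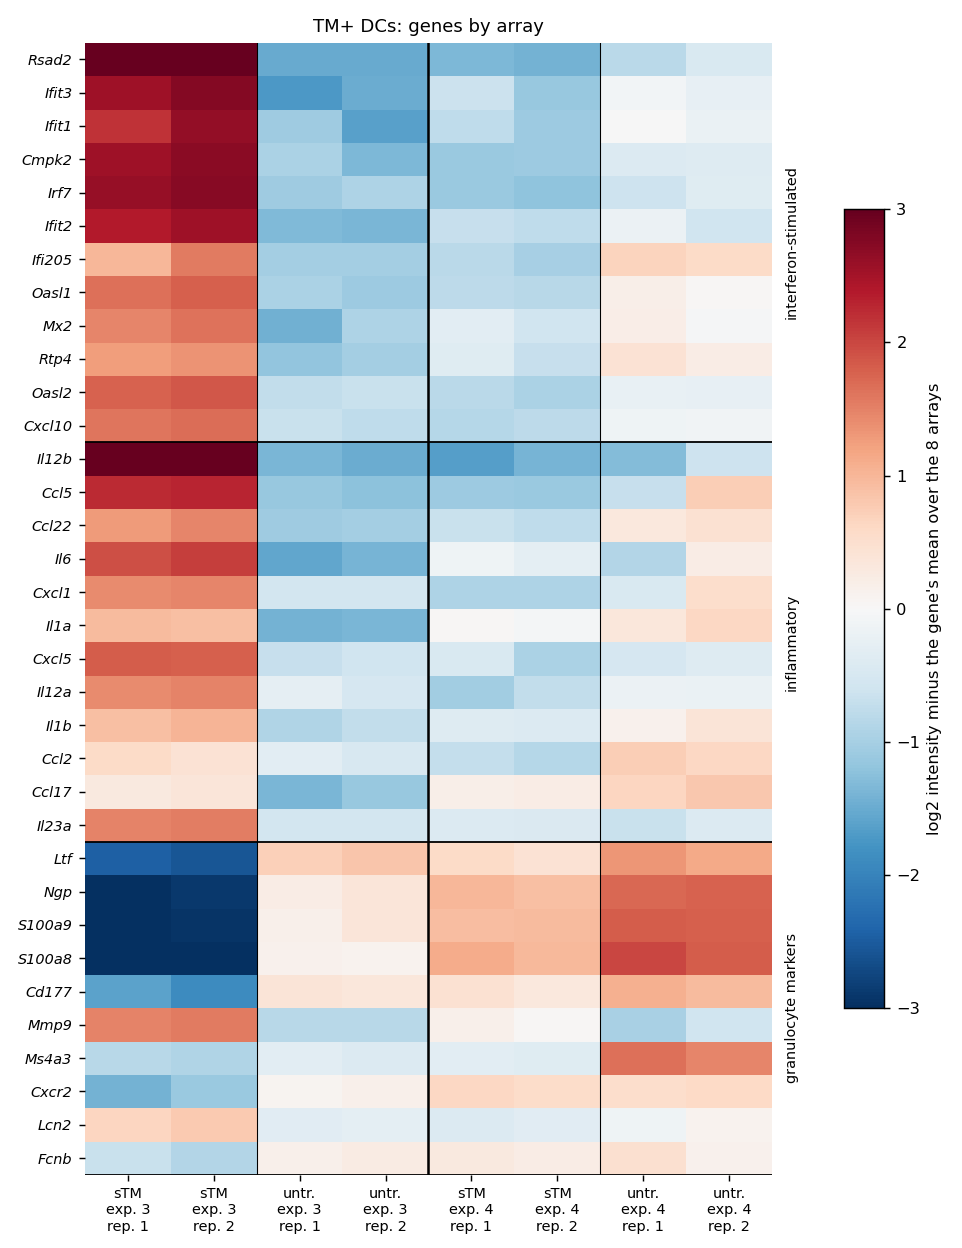
Log2 intensity of interferon-stimulated genes, inflammatory genes and granulocyte markers in the 8 TM+ arrays (columns), the members of each list whose effects differed most between experiments, each as its difference from its mean over these arrays, on a colour scale that ends at -3 and 3. Rsad2 was at 11.61 and 11.78 in the sTM-treated arrays of experiment 3 against 6.66 to 7.70 in the other 6, whereas Ccl2, Ccl17 and Ms4a3 were highest in the untreated arrays of experiment 4.

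Some genes were called in 1 experiment alone. In experiment 3 the calcium-activated potassium channel gene Kcnma1 had 10.15 and 10.24 in sTM-treated against 5.43 and 5.61 in untreated arrays, a 25.5-fold rise. In experiment 4 Kcnma1 had 5.64 and 5.51 in sTM-treated against 5.66 and 5.45 in untreated arrays, and it lay between 5.08 and 6.12 in all TM- arrays. The treated TM+ arrays of experiment 3 were thus the only sorted arrays of these experiments in which Kcnma1 was high. Aldh1a2, which makes retinoic acid, had 11.85 and 11.86 in sTM-treated against 7.85 and 7.96 in untreated arrays of experiment 3, a 15.4-fold rise, and 8.24 and 8.05 in sTM-treated against 8.28 and 8.54 in untreated arrays of experiment 4. In TM- arrays Aldh1a2 was at 11.42 to 12.66. Each of these genes passed the test of the difference between experiments (limma adjusted p = 2.09e-08 for Kcnma1 and 2.96e-08 for Aldh1a2).

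Most genes of the amino acid stress response rose in experiment 4. These genes are targets of ATF4, which is translated when amino acids or protein folding fail. Of 22 measured, 16 rose in experiment 4 and 4 in experiment 3 (18 and 7 with the replicate block), with medians of 0.531 and 0.038, and Mthfd2, Vldlr and Nupr1 rose in both. Asns, the asparagine synthetase whose promoter is printed above, had 11.61 and 11.52 in sTM-treated against 9.68 and 9.60 in untreated arrays of experiment 4, a 3.79-fold rise, and 11.58 and 11.61 in sTM-treated against 11.50 and 11.42 in untreated arrays of experiment 3. Its level was thus near 11.5 in every TM+ group but the untreated one of experiment 4. Trib3, a pseudokinase induced by ATF4, rose 3.30-fold in experiment 4 with an effect of -0.09 in experiment 3, and the secreted Stc2 rose 3.50-fold with an effect of 0.33 in experiment 3 (limma adjusted p = 0.0523, and 0.0105 with the replicate block). Of 11 amino acid stress genes whose effect was lower in experiment 3 by the test of the difference, Asns and Trib3 had adjusted p of 3.3e-06 and 4.31e-06. Selenbp1, a selenium-binding protein outside this list, showed the same pattern, with 9.16 and 9.05 in sTM-treated against 7.01 and 7.10 in untreated arrays of experiment 4 and 9.75 and 9.76 in sTM-treated against 9.68 and 9.77 in untreated arrays of experiment 3.

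Of 29 genes of DNA replication and nucleotide supply, 11 fell in experiment 4 and 6 rose in experiment 3 (15 and 9 with the replicate block), and Mcm6, Rrm2 and Ccne2 were called in opposite directions. The falls numbered 5 without untreated array 1 of experiment 4 and 7 without its sTM-treated array 2, and the rises 3 without untreated array 2 of experiment 3. Of 29 mitosis genes, 5 fell in experiment 3 and 2 in experiment 4 (8 and 6 with the replicate block), with medians of -0.189 and -0.022. Over all genes 4.99% fell in experiment 3 and 4.67% in experiment 4. With the replicate block 2013 and 1896 of all 19938 genes fell. Without 1 array the mitosis falls numbered 1 to 5 in experiment 3, with 2 without its sTM-treated array 1, 2 without its untreated array 2 and 1 without its untreated array 1. In experiment 4 they numbered 1 to 3, with 1 without its sTM-treated array 1 or either untreated array. Of 18 genes of the unfolded protein response, 10 fell in experiment 4, and Hspa5, the chaperone BiP, and Manf fell in both. Without untreated array 1 of experiment 4 the falls there numbered 6, and the count in both was 0 without untreated array 1 of experiment 3 and 1 without sTM-treated array 2 or untreated array 2 of experiment 3 or either untreated array of experiment 4. Of 21 immediate early genes, 10 fell in experiment 3 and 5 in experiment 4. Fosb, Egr1, Egr3 and Zfp36 fell in both. Fosb, a subunit of AP-1, had 6.95 and 6.71 in sTM-treated against 8.97 and 8.82 in untreated arrays of experiment 3, and 8.25 and 8.21 in sTM-treated against 8.63 and 8.63 in untreated arrays of experiment 4, a 4.19-fold and a 1.32-fold fall. Zfp36, which destabilizes cytokine mRNAs, fell 1.43-fold over both experiments (limma adjusted p = 0.0348). The count in both was 0 without either sTM-treated array or untreated array 1 of experiment 4, 1 without its untreated array 2 and 2 without either untreated array of experiment 3. The falls in experiment 4 numbered 1 or 2 without an array of that experiment and 3 without either untreated array of experiment 3.

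Genes of alternative activation and lectins rose in both experiments in few members. Retnla, the secreted protein Fizz1, had 12.09, 12.28, 12.49 and 12.52 in sTM-treated arrays against 10.22, 10.26, 11.84 and 11.86 in untreated arrays, with no overlap, and rose 3.85-fold in experiment 3 and 1.58-fold in experiment 4. The lectins Mgl2 and Clec10a, neighbours in the genome, rose 1.66-fold and 1.84-fold over both experiments (limma adjusted p = 0.0401 and 0.0202). Retnla and Mgl2 were the only members of 14 genes of alternative activation higher in both, and Clec10a the only 1 of 20 lectins and scavenger receptors, beside 6 and 2 with the replicate block. The count for alternative activation was 1 when any 1 array of experiment 4 was left out and 4 without sTM-treated array 1 of experiment 3, which also made the lectins 2. Of 23 genes of TM, protein C and coagulation, F5 alone rose in both, while Procr, the endothelial protein C receptor, and F3, tissue factor, rose in experiment 3 and fell in experiment 4. Procr had 11.29 and 11.31 in sTM-treated against 9.54 and 9.38 in untreated arrays of experiment 3, and 9.47 and 9.33 in sTM-treated against 9.95 and 9.98 in untreated arrays of experiment 4. Of 30 genes of prostanoids and leukotrienes, Hpgds fell in both (4 genes with the replicate block), and the leukotriene receptors Cysltr2 and Ltb4r1 and Ephx1 rose in both, Cysltr2 by 1.78-fold and 2.41-fold, with 1 such rise without untreated array 1 of experiment 3.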

How the data were processed

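Sorted TM+ and TM- DCs were measured on Affymetrix mouse whole-transcript arrays. RMA, run by the authors, covered background correction, normalization and probe summary, and left one linear intensity per transcript cluster and array in the deposited table. Nothing read here says whether the 36 arrays were normalized in a single run, and the small number of arrays limits the precision.

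Each deposited intensity was converted to log2 without any filter or rescaling. One transcript cluster per gene symbol was tested, the one with the highest mean over 36 arrays among 21789 clusters with exactly 1 symbol in the platform annotation. Of the 35556 clusters, 1621 had several symbols and 12146 none, and 999 of the 19938 symbols had more than 1 cluster. A RefSeq table held the gene ID of 19856. Promoters are from RefSeq, build GRCm38.p6.

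Within experiments, limma 3.58.1 (R 4.3.3) was fitted to the 4 groups of TM+ arrays, whose spread is shared. The study fitted a mixed model to each transcript over sorting, treatment and their interaction, which is not repeated here. Both experiments were fitted together, with experiment as a random block (statmod 1.5.0, correlation 0.4096), and so was the interaction of sorting and treatment in 16 sorted arrays (correlation 0.1645). All p-values were adjusted by the Benjamini-Hochberg method over all genes. Same-numbered treated and untreated TM+ arrays deviated together in both experiments (r = 0.40 and 0.35). Same-numbered TM+ and TM- arrays did so less or not at all. Their r was -0.08 (sTM-treated) and -0.25 (untreated) in experiment 3, and 0.31 and 0.12 in experiment 4. The number was also fitted as a block, and the blocked counts stand beside the others where they differ by more than 1.5 times. The pairing comes from the numbers in the labels, and this check does not establish it.

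Named genes were the 10 largest rises and falls called over both experiments, the 6 largest each called in both or for the difference between experiments, the 4 largest each called in 1 experiment alone, the 4 smallest p for the difference between fractions, members of gene lists and genes of the paper. Members of the lists were picked out for the text with their values known. The comparison, the lists and the rules were chosen with earlier results of these data known, and the hypoxia and ribosome biogenesis lists after these values had been seen. The fits were tested on simulated data with known changes. Alternatives are listed in the closing section.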

Additional observations from a re-analysis of the deposited data

Results flagged for a closer look

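In 2 of 428 groups of 4 TM+ arrays (214 genes, sTM-treated and untreated), 1 array lay far from the other 3. The usual chance rate of about 1 in 20 holds for 4 arrays of 1 kind and not for these groups, which hold 2 arrays from each of 2 experiments. For Ptgs2, the gap of the untreated array numbered 2 of experiment 4 to its nearest neighbour was 0.871 of the group's range. For Cpm it was the untreated array numbered 1 of experiment 4, with 0.839 of the range and levels of 5.40 in that array and 5.76 to 5.83 in the others.

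The sTM effect differed between the experiments by limma's test of the difference itself, which was called in 2000 genes, for 12 genes named for the size of that difference. As the effect in experiment 3 minus that in experiment 4, in log2 units, it was 7.31 for Hamp, 6.13 for Saa3, 6.00 for Ptgs2, 5.91 for Il12b, 5.78 for Rsad2 and 4.98 for Ifit3. It was -3.89 for Mcpt2, -3.71 for B4galnt2, -3.57 for Mcpt1, -3.21 for Il18r1, -2.87 for Cldn1 and -2.83 for Tgfb3. Between fractions, the effect in TM+ minus that in TM- DCs was -1.18 for Gcsam.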

How the results depend on the processing

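The number of genes called over both experiments was 132 as reported, 884 with experiment as a fixed factor and 2719 as the mean of the within-experiment contrasts. It was 910 with the replicate block, which also took experiment as a fixed factor, and 1 with no experiment term. It was 261 without dim genes (below the 25th percentile), 28 over all transcript clusters and 485 with treated arrays of experiment 2 added. Leaving out 1 array gave 1 to 120 calls: 1 without either untreated array of experiment 3, 2 and 44 without sTM-treated arrays 1 and 2 of experiment 3, 22 and 120 without those of experiment 4, and 7 and 19 without the untreated ones of experiment 4.

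Genes called in both experiments numbered 406 as reported, 617 at an adjusted p under 0.1, 634 after quantile normalization, 196 over all transcript clusters, 907 with the replicate block and 189 to 435 without 1 array. With the block, experiment 3 had 4229 calls, experiment 4 had 3751 and their difference, tried after the data had been seen, 3672. Without 1 array these were 1245 to 2598, 768 to 2281 and 1182 to 2129. The difference between fractions was called in 75 genes with array weights, 2 with a fixed experiment factor, 0 after quantile normalization (994 at an unadjusted p under 0.05) and 0 to 2 without 1 array, and the block left it at 1.

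Of experiment 3 calls 58.8% were higher as reported and 50.7% after quantile normalization. For the difference between experiments 55.7% were higher in experiment 3, against 48.6% with arrays centred on the 75th percentile and 48% after quantile normalization. Among the 32 named genes called over both experiments, no effect changed sign under the alternatives run, but many calls were lost. Signs of the named genes not called there were not compared. Of the 32 named genes called over both experiments, 1 was still called without either untreated array of experiment 3, 2 and 16 without sTM-treated arrays 1 and 2 of experiment 3, 13 and 26 without those of experiment 4, and 4 and 10 without the untreated ones of experiment 4. It was 24 after quantile normalization, 1 with no experiment term and 29 to 32 under the other alternatives. Named genes were not run over all transcript clusters. With few arrays and no detection calls, levels near those of the dimmest genes have no firm order.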
